A study of Mus musculus with 5 samples.

Results

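The Notch pathway was followed in interscapular brown adipose tissue (iBAT) of mice through 10 genes looked up by symbol among the 32285 genes of each single-nuclei RNA sequencing (snRNAseq) matrix: the receptors Notch1, Notch2, Notch3 and Notch4, the ligands Jag1, Jag2, Dll1 and Dll4, and the target genes Hey1 and Heyl. All 10 were found once in both matrices. One matrix holds a library from 3-month-old control littermates (WT) and a library from 3-month-old Ucp1-STX4KO mice, in which a floxed Stx4a gene is removed by Cre expressed from the Ucp1 promoter, that is, in brown adipocytes. Controls carried either the Cre or the floxed alleles. The other matrix, called the aging matrix here, holds 1 library each from C57BL/6J mice of 2 months (young adult), 12 months (middle age) and 24 months (old). All mice were male and nuclei were sorted by flow cytometry, and the methods name 4 mice without saying how they were divided among the libraries. Libraries are told apart only by a number at the end of the barcode, the barcode suffix, and nothing ties a suffix to a genotype or an age, so each matrix was treated as 1 pooled sample and no genotype or age was compared.

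Notch receptors are membrane proteins that bind ligands of the Jagged and Delta-like families on a neighbouring cell. Binding lets proteases release the intracellular part of the receptor, which moves to the nucleus, joins the DNA-binding protein RBPJ and a Mastermind-like coactivator, and switches on targets such as the Hes and Hey repressors. In blood vessels Dll4 and Notch1 are known for restraining endothelial sprouting and for arterial identity, and Notch3 for the growth and maintenance of smooth muscle cells and pericytes, the mural cells that wrap the endothelial tube.

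The unit of the deposited values is the UMI (unique molecular identifier), which stands for 1 captured RNA molecule. There were 20307 barcodes with 116053743 UMIs in the first matrix (suffix 1 had 11201 of them, suffix 2 the other 9106) and 30000 barcodes with 54656055 UMIs in the aging matrix, 10000 from each suffix. A typical barcode held 5998 or 3284.5 UMIs (medians of suffixes 1 and 2) in the first matrix and 891 to 1719.5 in the aging matrix. Barcode sequences recurred in a second library of the same matrix in 23 and 100 cases. Nuclei with at least 200 UMIs and 100 genes, 20307 and 27842, were gated into cell types by marker genes that include none of the 10. The samples are labelled as brown adipocytes, yet the adipocyte gate held 15013 nuclei (73.9%) of the first matrix and only 2168 (7.79%) of the aging matrix, where 16890 nuclei (60.7%) were endothelial.

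Endothelial nuclei were further gated as arterial, capillary or venous, and mural nuclei (pericytes and smooth muscle) as pericyte or smooth muscle. The first matrix gave 545 endothelial nuclei (62 arterial, 282 capillary and 11 venous) and 451 mural nuclei (419 pericyte and 25 smooth muscle). The aging matrix gave 1388 arterial, 10300 capillary and 413 venous nuclei, and 1936 pericyte and 1140 smooth muscle nuclei among 3194 mural nuclei. Gates under 50 nuclei are given no level below. The libraries were unevenly mixed in the aging matrix: suffix 1 supplied 1995 of the 3194 mural nuclei but 2805 of the 16890 endothelial nuclei, so values are also given by suffix. Levels are summed UMIs of a gene relative to all UMIs of the gate, as CPM (scaled to 1000000), with exact Poisson 95% intervals that cover counting error only. No p-values were computed, because there was 1 library per condition.

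The sequence just before the start of transcription is shown for 4 genes whose levels parted the vascular cell types: Notch3 and Hey2 (a further Hey target, described with the other pathway genes), which were mural, Dll4, which was endothelial, and Notch4, which was shared between endothelial nuclei and pericytes. Each is the 250 bases upstream of the RefSeq start on GRCm38.p6, 5′ to 3′ on the strand of the gene. Capitals mark matches on either strand to 2 motifs of 6 letters, TGGGAA, the core bound by RBPJ, and AGGAAG, a core bound by ETS factors, which are abundant in endothelial cells.
Notch3, chr17:32166891-32167140, minus strand: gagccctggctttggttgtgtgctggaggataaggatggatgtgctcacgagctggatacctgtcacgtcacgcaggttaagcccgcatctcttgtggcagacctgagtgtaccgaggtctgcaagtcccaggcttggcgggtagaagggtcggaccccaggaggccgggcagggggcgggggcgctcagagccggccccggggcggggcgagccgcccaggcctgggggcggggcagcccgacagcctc
Notch4, chr17:34564045-34564294, plus strand: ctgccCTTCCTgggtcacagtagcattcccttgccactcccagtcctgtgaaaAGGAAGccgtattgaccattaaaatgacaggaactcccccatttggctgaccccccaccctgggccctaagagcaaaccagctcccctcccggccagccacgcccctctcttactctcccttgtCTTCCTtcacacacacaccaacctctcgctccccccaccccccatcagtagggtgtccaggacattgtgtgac
Dll4, chr2:119325534-119325783, plus strand: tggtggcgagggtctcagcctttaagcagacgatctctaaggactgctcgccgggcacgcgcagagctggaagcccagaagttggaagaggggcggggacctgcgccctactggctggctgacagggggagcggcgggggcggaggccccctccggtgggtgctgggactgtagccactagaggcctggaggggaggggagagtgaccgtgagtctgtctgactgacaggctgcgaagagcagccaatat
Hey2, chr10:30842784-30843033, minus strand: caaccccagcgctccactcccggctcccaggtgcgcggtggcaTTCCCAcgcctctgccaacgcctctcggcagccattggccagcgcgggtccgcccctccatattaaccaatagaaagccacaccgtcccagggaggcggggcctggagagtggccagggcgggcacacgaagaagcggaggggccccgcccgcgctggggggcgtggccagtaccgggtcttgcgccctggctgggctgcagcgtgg
In GENCODE M21 the Notch4 gene begins at base 34564268 of chromosome 17, inside the 3′ end of the RefSeq window shown. Notch4 held 3 AGGAAG matches, beginning 245, 197 and 73 bases before the start, a motif present in 29.48% of 32851 mouse promoter windows of this length. Hey2 held 1 TGGGAA match 207 bases before the start, against 21.59% of all windows. Neither motif occurred in the windows shown for Notch3 and Dll4. RefSeq promoter sequences were matched for 8 of the 10 genes, all but Hey1 and Heyl. None of these 8 held TGGGAA, and besides Notch4 only Dll1 held AGGAAG, 14 bases before 1 of its 2 listed starts. A match describes letters in this window only.

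**Figure D1:**
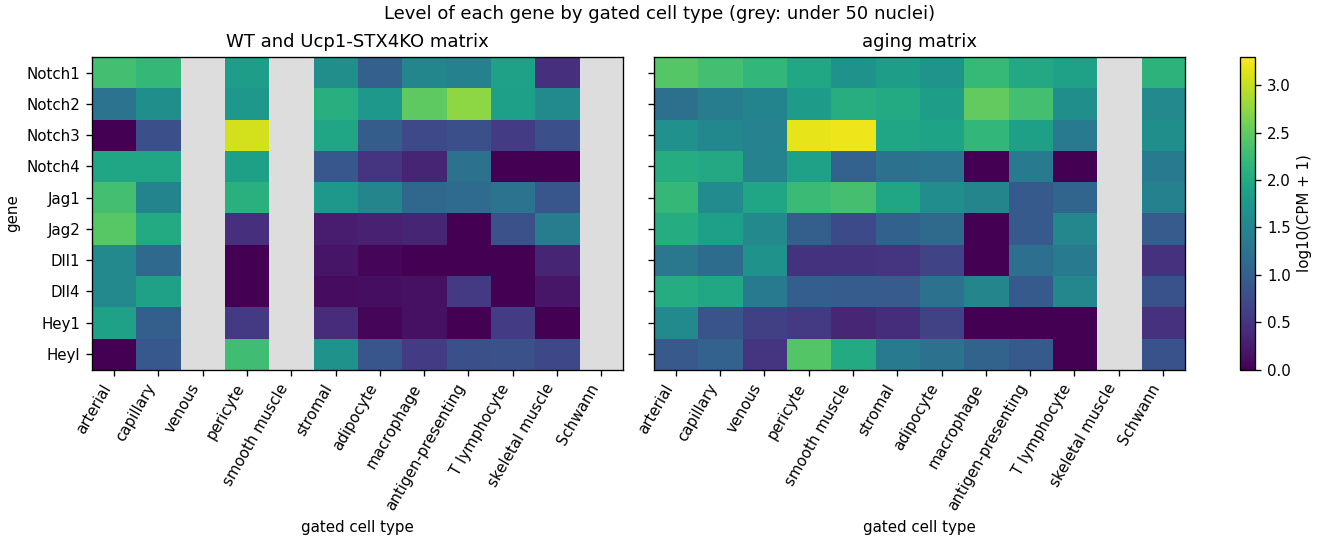
Level of each of the 10 genes, as log10(CPM + 1) on the colour scale, in each gated cell type (columns) of the 2 matrices, with gates under 50 nuclei in grey. Notch3 is brightest in pericyte nuclei of both matrices and in smooth muscle nuclei of the aging matrix, Notch2 in macrophages and antigen-presenting cells, and Dll4, Jag2 and Notch1 in the endothelial columns.

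Among the receptors, Notch3 marked the mural nuclei. Its level in mural nuclei was 1567.52 and 892 CPM in suffixes 1 and 2 of the first matrix, and 1822, 1277 and 1369 CPM in suffixes 1, 2 and 3 of the aging matrix. In endothelial nuclei it was 0 (0 UMIs) and 8.27 CPM in the first matrix and 92.6, 23.1 and 31.9 CPM in the second. Every mural value lay above every endothelial value of both matrices. Pooled, mural nuclei held 219-fold more Notch3 than endothelial nuclei in the first matrix (95% counting interval 101 to 599, from 1512 and 6 UMIs). This was 108-fold in suffix 2 and, with 3 counts set in place of the 0 endothelial UMIs, 163-fold in suffix 1. In the aging matrix mural nuclei held 46.7-fold more (43.8 to 49.8). The ratio was 19.7, 55.3 and 43.0 in suffixes 1, 2 and 3 of the aging matrix. The lowest of these, in suffix 1, went with the largest share of other mural RNA in endothelial nuclei: Pdgfrb and Gucy1a2, mural genes not used for gating, stood in endothelial nuclei at 5.55%, 2.28% and 1.93% of their mural level, and Notch3 at 5.08%, 1.81% and 2.33%. Whether endothelial Notch3 in this matrix was carried over from mural nuclei was not tested.

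Pericytes and smooth muscle cells carried Notch3 alike in the aging matrix. The level was 1719, 1281 and 1366 CPM in pericyte nuclei and 1876, 1268 and 1316 CPM in smooth muscle nuclei of suffixes 1, 2 and 3. The pericyte to smooth muscle ratio was 0.91 pooled (0.88 to 0.95) and 0.92, 1.01 and 1.04 by suffix, so its direction differed between libraries. A Notch3 UMI was seen in 89.1% of pericyte nuclei and 89.0% of smooth muscle nuclei, and in 53.2% and 53.8% of those with at least 500 UMIs once each nucleus was thinned to 500. By comparison, 4.25% of endothelial nuclei had one, and 1.28% after thinning. Median UMIs per nucleus were 2103.5, 1867.5 and 1559 in pericyte, smooth muscle and endothelial nuclei. In the first matrix pericyte Notch3 was 1532 CPM in suffix 1 and 728 in suffix 2, and the 2 Poisson intervals (1438 to 1631 and 653 to 809) did not overlap. Which genotype is the higher is not known.

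Outside the vessel wall Notch3 was low in the larger gates. Stromal nuclei, the fibroblast and progenitor compartment, held 86.7 CPM (77.4 to 96.7) in the first matrix and 88.5 (76.8 to 102) in the aging matrix, 6.83% and 5.53% of the mural level. Adipocyte nuclei held 8.38 CPM in the first matrix and 81.8 in the second, and in the second the level ran from 143 CPM in suffix 1 to 37.2 and 23.0 in suffixes 2 and 3. Pdgfrb and Gucy1a2 together moved the same way in adipocyte nuclei of suffixes 1, 2 and 3. They stood at 7.61%, 3.38% and 1.60% of their mural level, against 7.85%, 2.91% and 1.68% for Notch3. In stromal nuclei this pair stood above Notch3, at 23.0% and 26.0% of its mural level in the first and the aging matrix. The 52 macrophage nuclei of the aging matrix gave 152 CPM from 15 UMIs, of which 13 were in suffix 1. The part of carried-over RNA in these values was not tested.

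Notch1, the receptor best known in endothelium, was highest in endothelial nuclei without being limited to them. It stood at 151 and 168 CPM in endothelial nuclei and 48.1 and 91.1 CPM in mural nuclei of suffixes 1 and 2 of the first matrix. In the aging matrix it was 152, 186 and 243 CPM in endothelial nuclei and 56.2, 118 and 97.7 CPM in mural nuclei. The endothelial level was the higher in all 5 libraries, by 2.43-fold pooled (1.85 to 3.21) in the first matrix and 2.70-fold (2.48 to 2.94) in the aging matrix. The ratio fell under 2 in suffix 2 of each matrix (1.85 and 1.57), so Notch1 was not called by the rule used for all genes below. Within the endothelium of the aging matrix the order was arterial (269 CPM, 249.9 to 290.2), capillary (207, 201 to 214) and venous (154, 129 to 181), with no overlap between neighbouring intervals, and this order held in each of the 3 libraries. By library the intervals of neighbours overlapped throughout suffix 1, between capillary and venous nuclei in suffix 2, and not in suffix 3, as the plot of endothelial subtypes shows. In adipocyte nuclei Notch1 was 9.15 CPM in the first matrix and 49.6 in the aging matrix.

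Notch4, a receptor known from endothelium, was shared between endothelial nuclei and pericytes and low in smooth muscle. It was 117, 73.1 and 108 CPM in endothelial nuclei, 80.0, 35.5 and 94.7 CPM in pericyte nuclei and 3.22, 16.4 and 25.5 CPM in smooth muscle nuclei of suffixes 1, 2 and 3 of the aging matrix. Pericytes were above smooth muscle in each library, 7.63-fold pooled (5.05 to 12.1), with ratios of 24.9, 2.17 and 3.72 by suffix. Smooth muscle gave only 5, 6 and 13 UMIs in these libraries, and the interval of the ratio in suffix 2 (0.90 to 6.30) included 1. Pericyte Notch4 was 79.0% of the endothelial level in the aging matrix and 89.7% in the first matrix, where pericyte and endothelial nuclei held 74.4 CPM (59.2 to 92.2) and 82.9 CPM (66.3 to 102) and the intervals overlapped. In the aging matrix they did not (67.9 to 83.4 and 92.0 to 99.0 CPM). Capillary markers not used to gate endothelial nuclei (8 genes) stood in the same pericytes at 20.1% and 9.07% of their endothelial level. Among endothelial subtypes of the aging matrix, arterial (109 CPM) and capillary nuclei (97.2) had overlapping intervals, and venous nuclei had only 29.2 CPM (19.2 to 42.5). Capillary Notch4 exceeded venous Notch4 3.33-fold pooled (2.28 to 5.07) and 5.17-, 3.32- and 3.39-fold by suffix. In adipocyte nuclei Notch4 was 2.23 CPM in the first matrix and 17.2 in the aging matrix.

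Notch2 followed another pattern, with its highest pooled levels outside the vessel wall. Its order in the first matrix began with antigen-presenting B or dendritic nuclei (547 CPM, 474 to 627), macrophage nuclei (302, 281 to 324) and stromal nuclei (115, 104 to 126), and none of these intervals overlapped. Macrophages (324 CPM, 222 to 457, 32 UMIs) and antigen-presenting nuclei (203, 134 to 295, 27 UMIs) led again in the aging matrix, with overlapping intervals. Both gates held few nuclei there, 52 and 74, and the leading gate of Notch2 in this matrix changed with the processing. Gates under 50 nuclei were not ranked, as was so for macrophages in each suffix alone. Smooth muscle (112 CPM) and stromal nuclei (104 CPM) came next. Mural nuclei held 3.51-fold more Notch2 than endothelial nuclei in the aging matrix (3.14 to 3.92), with ratios of 3.12, 2.68 and 4.38 by suffix. In the first matrix this ratio was 1.58 (1.06 to 2.41), and it was 0.94 in suffix 1 and 2.29 in suffix 2. Of the 4 receptors only Notch2 had over 50 CPM in adipocyte nuclei of both matrices: 64.1 and 40.0 CPM in suffixes 1 and 2 of the first, and 66.1, 63.9 and 86.4 CPM in the 3 libraries of the second, each above the endothelial value of the same library, though in both libraries of the first matrix the adipocyte value lay within the endothelial interval (34.2 to 91.2 CPM in suffix 1 and 17.9 to 44.3 in suffix 2).

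**Figure D2:**
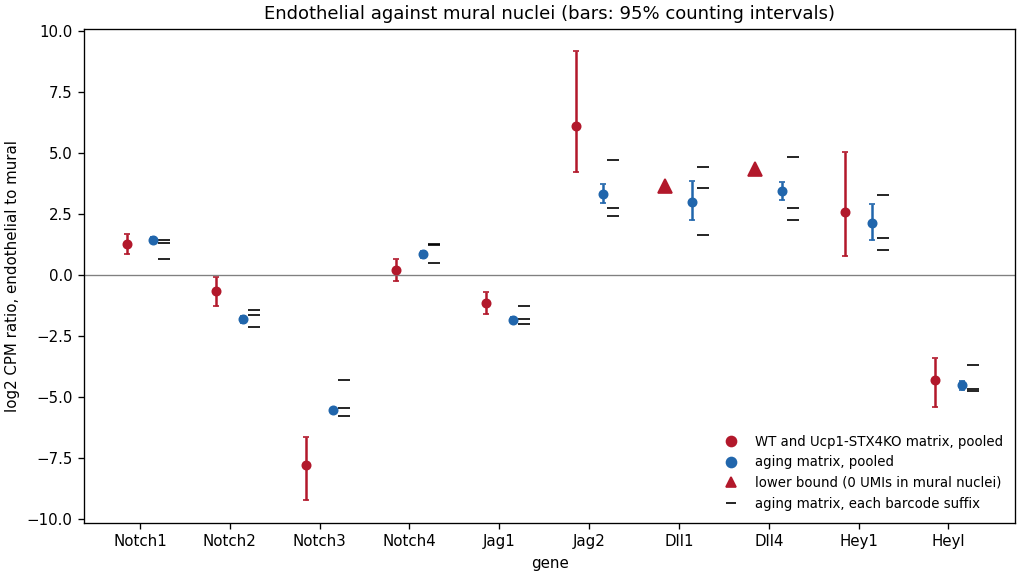
CPM ratio of endothelial to mural nuclei on a log2 axis for each gene, pooled in each matrix (circles, with 95% counting intervals), as a lower bound where mural nuclei held 0 UMIs (triangles), and in each barcode suffix of the aging matrix (dashes). Notch3 and Heyl lie far below 0 and Jag2, Dll1 and Dll4 far above it in both matrices, while Notch4 pooled lies within 1 unit of 0.

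The Delta-like ligands were endothelial. Dll4 was 135 CPM (42 UMIs) and 16.5 CPM (12 UMIs) in endothelial nuclei of suffixes 1 and 2 of the first matrix, and 62.9, 75.3 and 107 CPM in those of the aging matrix. Mural nuclei of the first matrix had 0 Dll4 UMIs in both libraries, which allows a level of up to 2.52 CPM (3 counts), and those of the aging matrix 2.15, 15.8 and 16.0 CPM. Endothelial Dll4 was therefore at least 20.7-fold higher than mural Dll4 in the first matrix (at least 29.8-fold in suffix 1 and 2.91-fold in suffix 2), and 10.8-fold higher in the aging matrix (8.45 to 14.1). By suffix the latter ratio was 29.2, 4.77 and 6.71. Mural Dll4 stood at 3.42%, 21.0% and 14.9% of the endothelial level in suffixes 1, 2 and 3, and the 8 capillary markers at 11.3%, 28.0% and 24.9%. Mural Dll4 thus stood at a lower share than these markers in each library, and whether it was carried over from endothelial nuclei was not tested.

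Within endothelium, Dll4 was low in venous nuclei. It was 70.6, 108 and 115 CPM in arterial nuclei, 62.6, 76.9 and 114 CPM in capillary nuclei and 16.9, 13.2 and 25.9 CPM in venous nuclei of suffixes 1, 2 and 3 of the aging matrix. Each venous value lay below all arterial and capillary values. The capillary to venous ratio was 4.38 pooled (2.82 to 7.18), from 1794 and 20 UMIs, and 3.71, 5.84 and 4.40 by suffix. Arterial and capillary nuclei differed little, 1.15-fold (1.01 to 1.30). The 2 libraries of the first matrix stood apart, with 160.4 CPM (37 UMIs) in capillary nuclei of suffix 1 and 18.0 CPM (6 UMIs) in those of suffix 2. The 8 capillary markers differed less between the endothelial nuclei of these libraries (2447 and 1632 CPM). With 1 library per genotype, the gap cannot be told apart from a difference between libraries.

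Dll1, the second Delta-like ligand, was sparse, and its pooled level in the aging matrix was highest in venous nuclei. Mural nuclei of the first matrix held 0 of its UMIs, so the endothelial level (33 UMIs, 31.8 CPM) was at least 12.6-fold higher. The aging matrix gave 15.7 CPM in endothelial and 1.96 CPM in mural nuclei, a ratio of 8.01 (4.81 to 14.4), and 21.6, 3.12 and 12.0 by suffix. Venous nuclei held 92.9, 87.9 and 20.7 CPM and capillary nuclei 13.9, 17.3 and 10.4 CPM in suffixes 1, 2 and 3. The venous excess of 3.44-fold pooled (2.43 to 4.77) was 6.68, 5.07 and 2.00 by suffix, and just missed the 2-fold rule in suffix 3, the library with most venous nuclei (229). It rested on 43 venous UMIs. Arterial nuclei held 24.9, 20.8 and 18.8 CPM in suffixes 1, 2 and 3, with intervals that overlapped the venous ones in suffixes 1 and 3. Pooled, Dll1 was thus higher and Dll4 lower in venous than in capillary nuclei.

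Jag2 was the Jagged ligand that was higher in endothelial than in mural nuclei. Its endothelial level was 86.6 and 129.6 CPM in the first matrix and 76.5, 62.9 and 84.1 CPM in the aging matrix, against 1.50, 1.90, 2.87, 9.33 and 15.5 CPM in mural nuclei of the same libraries. The groups did not overlap, and the pooled ratios were 69.5 (18.8 to 581, from 121 and 2 UMIs) and 10.1 (7.76 to 13.4), the latter 26.7, 6.75 and 5.43 by suffix. Arterial nuclei held the most: 275 CPM (188 to 389) against 103 (78.0 to 133) in capillary nuclei of the first matrix, 2.68-fold, and 108 CPM against 72.5 in the aging matrix, 1.49-fold (1.31 to 1.70). The arterial nuclei of the aging matrix nonetheless held more Jag1 (155 CPM pooled) than Jag2. Venous nuclei of that matrix had 34.6 CPM of Jag2. Among non-vascular gates of at least 50 nuclei in the first matrix, only skeletal muscle was above 20 CPM, with 23.0 CPM (16.3 to 31.5) from 38 UMIs, all in suffix 2, which supplied 317 of its 325 nuclei. Adipocyte nuclei held 1.001 CPM there and 12.9 CPM in the aging matrix, where they also carried the 8 capillary markers at 20.5% of the endothelial level and Jag2 at 17.2%.

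Jag1 crossed the vessel wall, being high in mural nuclei and, within endothelium, in arterial nuclei. It was 153 and 96.8 CPM in mural nuclei of the first matrix and 185, 149.9 and 211 CPM in those of the aging matrix. Endothelial nuclei of the same libraries had 38.5, 67.5, 77.2, 43.8 and 53.4 CPM, below the mural value in each. The mural excess was 2.18-fold (1.61 to 2.99) in the first matrix, where suffix 2 gave 1.43, and 3.56-fold (3.31 to 3.83) in the aging matrix. Smooth muscle nuclei of the aging matrix (212 CPM) exceeded pericyte nuclei (175 CPM) by 1.21-fold (1.08 to 1.35), and in each library. Arterial nuclei of the aging matrix held 270.1, 129 and 151 CPM and capillary nuclei 51.9, 33.4 and 40.3 CPM, 4.03-fold less pooled (3.56 to 4.56). Venous nuclei lay between them at 89.7 CPM. The 24 arterial and 17 capillary UMIs of the first matrix gave 207 and 30.1 CPM, 6.86-fold (3.53 to 13.6), with every arterial UMI in suffix 2. Jag1 was also present in stromal nuclei (56.0 and 86.4 CPM) and in adipocyte nuclei (30.4 and 40.2 CPM) of the 2 matrices.

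**Figure D3:**
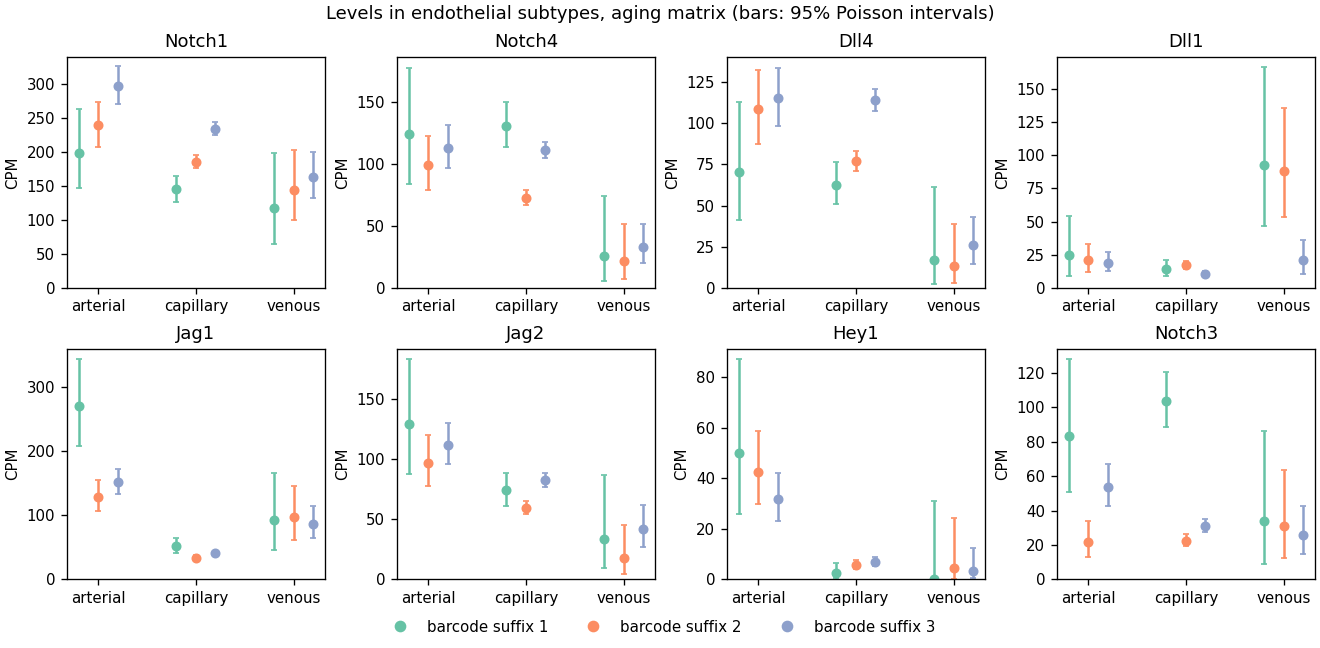
CPM of 8 of the genes in arterial, capillary and venous endothelial nuclei of the aging matrix, with 1 point per barcode suffix and exact Poisson 95% intervals. Hey1 and Jag1 stand highest in arterial nuclei in all 3 libraries, Dll4 and Notch4 lowest in venous nuclei, and Dll1 highest in venous nuclei, least so in suffix 3.

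The targets Hey1 and Heyl, both transcriptional repressors, were found on opposite sides of the vessel wall. Hey1 was arterial, with 49.9, 42.7 and 31.6 CPM in arterial nuclei, 2.53, 5.69 and 7.05 CPM in capillary nuclei, and 0, 4.39 and 3.46 CPM in venous nuclei of suffixes 1, 2 and 3 of the aging matrix. Arterial exceeded capillary Hey1 6.05-fold pooled (4.57 to 7.996), and 19.7-, 7.498- and 4.49-fold by suffix, from 96 and 116 UMIs. The first matrix gave 77.4 and 8.85 CPM from 9 and 5 UMIs, 8.75-fold (2.63 to 33.2), of which 8 arterial UMIs were in suffix 2. In mural nuclei Hey1 was 2.52 CPM in the first matrix and 2.22 CPM in the aging matrix, where the endothelial level was 4.38-fold higher (2.69 to 7.63), from 292 and 17 UMIs. By suffix this ratio was 9.75, 2.06 and 2.90, and its interval in suffix 2 (0.97 to 5.23) included 1.

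Heyl was mural and favoured pericytes. It was 141 and 254 CPM in mural nuclei of the first matrix and 199.6, 296 and 172 CPM in those of the aging matrix, against 9.62, 9.65, 15.7, 11.5 and 6.36 CPM in endothelial nuclei. The pooled mural to endothelial ratio was 19.8 (10.6 to 41.9) and 22.7 (19.96 to 25.9), the latter 12.7, 25.7 and 27.1 by suffix. Pericyte nuclei of the aging matrix held 262, 349.5 and 205 CPM and smooth muscle nuclei 98.5, 156 and 82.3 CPM, a ratio of 2.53 pooled (2.21 to 2.91) and 2.66, 2.24 and 2.50 by suffix. Heyl and Notch3 thus did not share 1 order within the mural nuclei. Stromal nuclei had 47.6 CPM in the first matrix and 22.5 in the second, and adipocyte nuclei 6.64 and 16.5.

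Read against all genes, the 10 parted endothelial from mural nuclei often. A gene was called when its CPM ratio was at least 2, pooled and in each suffix with at least 50 nuclei of both gates, among genes with at least 100 UMIs over the 2 gates. All 10 were above that minimum in the aging matrix, and 4 were called higher in endothelial nuclei (Jag2, Dll1, Dll4 and Hey1), where 9.88% of 12364 genes were, and 4 higher in mural nuclei (Notch2, Notch3, Jag1 and Heyl), where 10.1% were. Of the 10, 7 reached the minimum in the first matrix, of which Jag2 was called endothelial (8.52% of 4601 genes) and Notch3 and Heyl mural (9.06%). The 10 were chosen with results of these data known, so these counts are a description.

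Fewer calls came from the subtypes. Jag1 and Hey1, 2 of the 10, were called higher in arterial than in capillary nuclei of the aging matrix (2.39% of 10564 genes) and 0 lower (1.14%). Notch4 and Dll4 were called lower in venous than in capillary nuclei (3.87% of 10346 genes), and 0 of the 10 higher (3.27%). Between pericyte and smooth muscle nuclei 6 of the 10 reached the minimum, with Notch4 and Heyl called higher in pericytes (8.38% of 7732 genes) and 0 in smooth muscle (6.22%). Between arterial and capillary nuclei of the first matrix only Notch1 reached the minimum and it was not called, where 3.52% of 1536 genes were called arterial and 4.56% capillary.

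Other genes of the pathway were taken from a list of 45. Between endothelial and mural nuclei of the aging matrix 37 were testable. Of these, 3 were called endothelial and 6 mural, where 9.88% and 10.1% of all tested genes were. Their median endothelial to mural ratio was 0.89 against 0.99 over all tested genes. In the first matrix 16 were testable, with 0 called endothelial (8.52% of all tested genes) and 2 mural (9.06%). Among the sugar transferases, which modify the receptors and tune their choice of ligand, Lfng (9.51 and 1.18 CPM) and Mfng (32.7 and 2.88 CPM) were called endothelial. Of the ubiquitin ligases and endocytic proteins, Neurl3, a Neuralized-like ligase, was endothelial (12.95 and 0.52 CPM), and Numbl, Dtx3 and Dtx4 were mural, Dtx3 by 14.3-fold (12.96 to 15.9). The coactivator Maml3 was called mural in both matrices, 9.16-fold (8.93 to 9.41) in the aging matrix and 11.4-fold (9.78 to 13.4) in the first, as was Dtx3. Dlk1, a ligand-like protein, was mural in the aging matrix, 10.1-fold. The sixth mural gene was the target Hey2, 35.5-fold (24.98 to 51.9). None of the receptor proteases was called between these gates, and RBPJ itself was even, with Rbpj at 79.7 CPM in endothelial and 73.9 in mural nuclei.

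**Figure D4:**
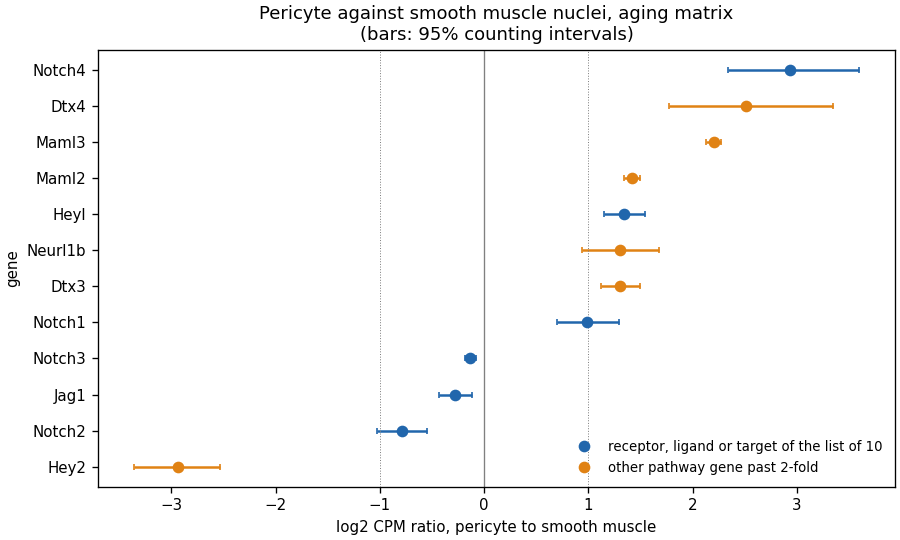
CPM ratio of pericyte to smooth muscle nuclei in the aging matrix on a log2 axis, with 95% counting intervals, for the 6 of the 10 genes with at least 100 UMIs (blue) and the pathway genes past the 2-fold rule (orange). Notch4 lies farthest to the pericyte side and Hey2 farthest to the smooth muscle side, while Notch3 and Jag1 lie near 0.

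The target Hey2 separated the mural types. It was 99.2 CPM (241 UMIs) in smooth muscle nuclei and 12.97 CPM (64 UMIs) in pericyte nuclei of the aging matrix, 7.65-fold (5.78 to 10.2), and 1.17 CPM in endothelial nuclei. Hey2 was thus higher in smooth muscle and Heyl higher in pericytes, at like levels of Notch3. Smooth muscle nuclei still held 104 CPM of Heyl (252 UMIs), about as much as of Hey2. Of 30 testable pathway genes, Neurl1b, Dtx3, Dtx4, Maml2 and Maml3 were called higher in pericytes (8.38% of all tested genes) and Hey2 in smooth muscle (6.22%). The median pericyte to smooth muscle ratio of the 30 was 1.28 against 1.15 over all tested genes. Maml3 was 3310 CPM in pericyte and 719 CPM in smooth muscle nuclei, 4.604-fold (4.38 to 4.84). Between venous and capillary nuclei 32 were testable. Psen2 (5.80-fold), Lfng (3.51-fold) and Neurl3 (8.95-fold) were called venous (3.27% of all tested genes) and 0 capillary (3.87%). Between arterial and capillary nuclei 0 of 33 were called in either direction (2.39% arterial and 1.14% capillary over all tested genes). In the first matrix 0 of 8 were called (3.52% and 4.56%).

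**Figure D5:**
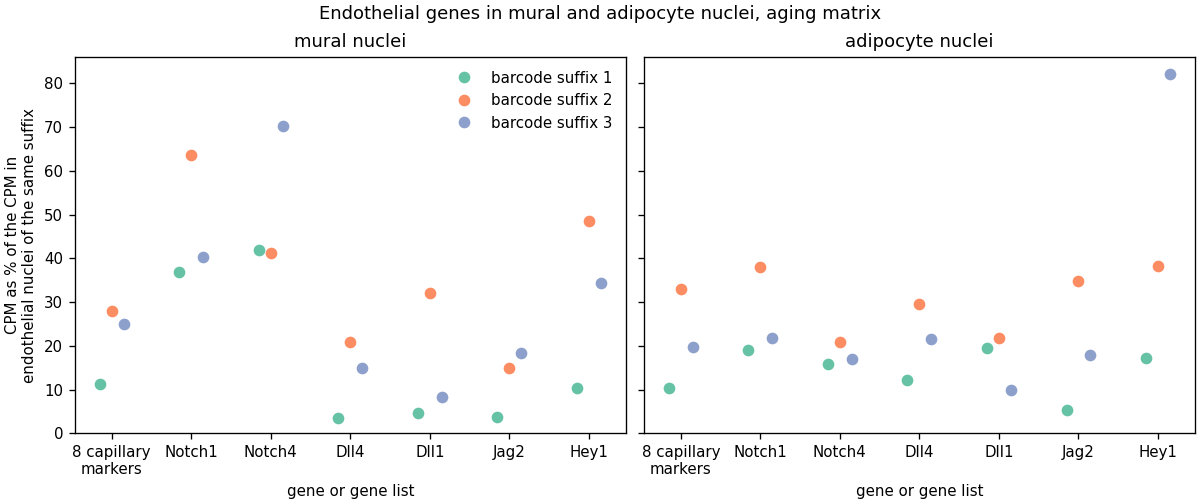
CPM in mural (left) and adipocyte nuclei (right) of the aging matrix, as a percent of the CPM in endothelial nuclei of the same barcode suffix, for 8 capillary markers together and for 6 of the genes. In mural nuclei Notch1 and Notch4 lie above the capillary markers in each suffix, whereas Dll4 and Jag2 lie below them. In adipocyte nuclei the farthest point is Hey1 in suffix 3, at 82.1% from 7 UMIs.

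UMIs of the 8 capillary markers were also seen in mural, stromal and adipocyte nuclei of the aging matrix, so the levels of endothelial genes there were set beside them. The markers stood at 17.9% of the endothelial level in mural, 17.9% in stromal and 20.5% in adipocyte nuclei. In mural nuclei Dll4 (9.23%) and Jag2 (9.91%) were below the markers, and Notch1 (37.1%) and Notch4 (55.4%) above them, pooled and in each suffix. Dll1 and Hey1 had no single order: in suffixes 1, 2 and 3 mural Dll1 was at 4.64%, 32.1% and 8.36% and mural Hey1 at 10.3%, 48.6% and 34.4%, against 11.3%, 28.0% and 24.9% for the markers. In adipocyte nuclei, where the markers were at 10.4%, 33.0% and 19.6% in suffixes 1, 2 and 3, Notch1 (19.0%, 38.0% and 21.8%) and Hey1 (17.2%, 38.1% and 82.1%, from 19 UMIs in all) were above them in each suffix. The order of Notch4 (15.7%, 21.0% and 17.1%), Dll4 (12.1%, 29.6% and 21.5%), Jag2 (5.24%, 34.8% and 17.8%) and Dll1 (19.4%, 21.7% and 9.97%) against the markers differed between suffixes. The part of RNA from other nuclei in these levels was not tested. The markers stood at 0.70% of the endothelial level in adipocyte nuclei of the first matrix, and Dll4 and Jag2 at 0.59% and 0.86%, whereas Notch1 was at 5.62% and Notch4 at 2.69%.

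The genes whose profile was most like each of the 10 were sought over 20 gates of at least 50 nuclei from both matrices, as the 3 with the highest Pearson correlation of log2(CPM + 1) among 10440 genes. The gates of 1 matrix share libraries, so r is a description. Dll4 was closest to Ushbp1 (r = 0.98), Adgrl4 (0.97) and Btnl9 (0.96), of which the latter pair are endothelial and capillary gate markers. Notch3 was closest to Gucy1a1 (0.96), a subunit of the nitric oxide receptor, to S1pr3 (0.94), a sphingosine-1-phosphate receptor, and to the calcium channel subunit gene Cacna1c (0.94). Heyl was closest to Rgs6 (0.94), Mnd1 (0.92) and Pdgfrb (0.91), the receptor that marks mural cells. Dll1 was closest to Cav2, Nos3, the endothelial nitric oxide synthase, and Ceacam1 (0.91, 0.90 and 0.89), and Notch1 to Dynll1, Elk3 and Gbp7 (all 0.93). Jag1 was closest to Vegfc, an arterial gate marker, Rbpms and Sox13 (0.89, 0.89 and 0.87). For the others, Notch2 was followed by Snx29, Vps9d1 and Snx30 (0.90, 0.88 and 0.88), Notch4 by Sh3bp4, 1700085D07Rik and Zbtb46 (0.89, 0.84 and 0.84), Jag2 by Rapgef1, Hoxd4 and Myl12a (0.87, 0.86 and 0.85), and Hey1 by Pik3r3, Eogt and Rhpn2 (0.92, 0.88 and 0.87).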

How the data were processed

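Per the labels and methods, the authors aligned reads of the 10x 3′ assay to mm10 with Cell Ranger 6.1.2 and deposited raw UMI counts per gene and nucleus as 2 matrices. The labels also name Seurat 4.1.0. How strand was treated is not given in the sources used here, so reads of genes overlapping Notch1, Notch3 and Dll4 on the other strand cannot be told apart. The members, pathway list and markers were chosen with earlier results of these data known. Nuclei with at least 200 UMIs and 100 genes were kept. A nucleus entered a gate with at least 3 UMIs from at least 2 of its markers. Their density had to reach 50% of that of nuclei with 4 markers and stand 2-fold above any other gate. Adipocyte nuclei needed no such margin, only that no other gate reached 50%. Mural nuclei without a 2-fold margin between pericyte and smooth muscle were given no subtype. Markers under 5-fold specific were left out, except that adipocyte, arterial, capillary and venous markers were all kept without this check. Endothelial subtypes needed 25 marker UMIs per 10000. Arterial and venous nuclei also needed a 2-fold margin over each other, but none over capillary markers. Capillary nuclei needed under 12.5 arterial and under 12.5 venous marker UMIs per 10000. These limits were set on marker UMIs after they were seen, without the 10 genes. Doublets were not called; nuclei of more than 1 gate (338 and 1315) and of none (1409 and 2869) were left out. Sums have exact Poisson, shares Clopper-Pearson and CPM ratios exact conditional binomial 95% intervals, for counting error only. Named were the 10, pathway genes that were called, and the 3 genes most like each. The alternatives were a minimum of 6 marker UMIs, the full stated range (200 to 2000 UMIs, 100 to 3000 genes), Leiden clusters (scanpy 1.11.5, the 10 genes withheld), thinning to 500 UMIs, each suffix alone and leaving out the 8% of nuclei with most UMIs. Calls were also run on simulated counts that held no differences between libraries, so that run does not bear on calls where libraries differ. Tables and intervals were made with pandas 2.3.3 and scipy 1.17.1, under Python 3.11.15 with numpy 2.4.6. Promoter windows came from RefSeq (GRCm38.p6).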

Additional observations from a re-analysis of the deposited data

How the results depend on the processing

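None of the ratios recomputed under every alternative reversed. These include the ratios of called genes, whose direction is alike in each suffix by the rule for a call. Of the other ratios given, 2 changed direction between suffixes with at least 50 nuclei of both gates: Notch3, pericyte to smooth muscle, from 0.91 to 1.01 and 1.04 in suffixes 2 and 3 of the aging matrix, and Notch2, mural to endothelial, from 1.58 to 0.94 in suffix 1 of the first. Notch3, mural to endothelial, moved from 219 to 89.4 under the full stated range in the first matrix, where that range leaves 0 nuclei of suffix 1 and 2763 of suffix 2, so that it also drops a library. In the aging matrix it moved from 46.7 to 68.1 under that range, 70.4 with clusters, 62.3 after thinning, 62.7 without the 8% of nuclei with most UMIs, and 19.7, 55.3 and 43.0 in suffixes 1, 2 and 3 alone. With 3 counts set in place of 0 mural UMIs, Dll4, endothelial to mural, moved in the first matrix from 20.7 to 1.68 under the full range. It was 2.76 after thinning and 2.91 in suffix 2 alone, and each of these 3 values had 12 or fewer UMIs. In the aging matrix it moved from 10.8 to 6.79 with clusters and to 29.2, 4.77 and 6.71 by suffix. Hey1, arterial to capillary, moved in the aging matrix from 6.05 to 19.7 in suffix 1 and 4.49 in suffix 3 alone. Clusters gave no arterial to capillary value in the first matrix, where 1 endothelial cluster was found.

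Calls between endothelial and mural nuclei fell from 3 to 1 in the first matrix under the full range and after thinning. In the aging matrix calls between arterial and capillary nuclei fell from 2 to 1 after thinning and in suffixes 1 and 2 alone. Calls between venous and capillary nuclei rose from 2 to 4 in suffix 1 alone and without the 8%, and to 5 in suffix 2 alone. Calls between pericyte and smooth muscle nuclei fell from 2 to 0 under the full range, where Heyl gave 1.985, and to 1 with clusters and after thinning. The leading gate of the first matrix stayed for 5 of 10 genes with a minimum of 6 marker UMIs and under the full range, and for 4 with clusters and in suffix 1 alone. No arterial level could be had in these, so genes led by arterial nuclei passed to another gate. Besides them Notch4 passed to pericytes with clusters and Notch2 to stromal nuclei in suffix 1. Antigen-presenting and macrophage gates of that suffix held 25 and 29 nuclei, under the 50 needed for a level. The aging matrix kept the leading gate for 7 to 10 genes. There Notch2 passed from macrophages to antigen-presenting nuclei (full range, suffix 2, without the 8%), smooth muscle (clusters, suffix 3) or stromal nuclei (suffix 1), Dll1 from venous nuclei to T lymphocytes after thinning, Notch3 to pericytes in suffixes 2 and 3, and Jag1 to arterial and Notch4 to capillary nuclei in suffix 1. Gates under 50 nuclei were not ranked. In suffixes 1, 2 and 3 alone, macrophages held 12, 23 and 17 nuclei and antigen-presenting nuclei numbered 7, 53 and 14. No cluster of the aging matrix was named for either. The causes of the other changes were not tested. With clusters, capillary to venous ratios fell from 3.33 to 2.16 for Notch4 and from 4.38 to 2.45 for Dll4, and Jag2, endothelial to mural, from 10.1 to 5.72 in the aging matrix. Of 102 further values of single genes 30 moved beyond their interval and 0 reversed. All 102 belong to genes already called, and a call requires 1 direction in each suffix, so the values of single suffixes could not reverse. No paired analysis was possible because libraries have no replicate numbers and no test was made. Depth limits Dll1 and Hey1, and the venous (11 nuclei), smooth muscle (25) and arterial (62) gates of the first matrix.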
